A study of Saccharomyces cerevisiae and Saccharomyces cerevisiae S288C with 30 samples.

Results

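The introns of 9 budding yeast genes of the secretory pathway are described here: BET1, BOS1, SAR1, SEC17, SNC1, ARF2, SEC14, YOP1 and YIP3. They were chosen by gene name, and each gene had 1 event in the deposited splicing table, which gave 9 events of 405. Of these, 8 were annotated introns, out of 279 annotated introns in the table, and the event at ARF2 was an unannotated intron. The measured quantity was PSI, a fraction from 0 to 1 given with 2 decimals. The definition is not given in the sources used here. For annotated introns a higher PSI was read as a larger share of RNA that holds the intron. This reading rests on the values alone. The median over annotated introns was 0.2125 in the controls WT and -rap. It was 0.895 in the Ribo-Zero dbr1 cells but 0.3075 in the TruSeq dbr1_null cells. The values do not separate unspliced transcripts from excised introns, so a high PSI in debranching mutants need not stand for retention. For unannotated events, and so for ARF2, the direction of the scale is uncertain: a high PSI there may stand for retention or for splicing, and ARF2 values are given as PSI with neither reading.

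The study set out to find branch points and introns in Saccharomyces cerevisiae and combined 26 RNA-seq libraries with Branch-seq and Lariat-seq, which read the branch points of lariat RNA. The Branch-seq and Lariat-seq cells were grown to an optical density of 0.94 to 0.98, and their genotype is not reported here. The RNA-seq libraries formed 13 groups of 2 biological replicates. The TruSeq preparation, which the file header calls polyA, had 6 libraries, from WT, dbr1_null and upf1_null cells of the S288C background grown in rich medium (YPD) to an optical density of 0.5 to 1. The Ribo-Zero preparation, in which ribosomal RNA was removed from total RNA, had 20 libraries. They came from cells labelled -rap, +rap and dbr1 (S288c), from an SK1 culture labelled sk1, and from SK1 cells kept in sporulation medium for 0, 3, 6, 7.5, 8.5 and 12 h. SK1 is a strain that sporulates efficiently. The labels name no control for dbr1 or for sk1. Both were compared with -rap, which also served as the control of +rap, so these 3 comparisons share their control libraries. In the same way dbr1_null and upf1_null share the WT libraries, and neighbouring sporulation times share a group. The files hold no expression value for DBR1 or UPF1, so the mutant labels could not be checked on the deleted genes.

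Secretory proteins leave the endoplasmic reticulum (ER) in coated vesicles, pass through the Golgi and reach the plasma membrane or the vacuole. Small GTPases start the coats, SNARE proteins on vesicle and target membranes drive fusion, and lipid transfer and membrane-shaping proteins keep the compartments in order. Most yeast genes have no intron. Where one is present it is removed as a branched lariat, which the debranching enzyme Dbr1 opens. Upf1 is the helicase of nonsense-mediated decay, which degrades transcripts with early stop codons, among them some unspliced transcripts. During sporulation a diploid cell goes through meiosis and builds new membranes around the haploid nuclei, a process that uses the late secretory pathway.

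The table held between 231 and 394 values per library, fewest at 7.5 and 8.5 h, and the median difference between replicates lay between 0.01 and 0.04 in every group. Of the 234 possible values of the 9 introns, 209 were present. The read depth behind each PSI is unknown, so no counting interval can be given for a single value. PSI was measured on bulk cultures, so a change in every cell and a change in the mix of cells cannot be told apart.

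The 8 annotated introns were short and lay near the start of their genes (sacCer3 coordinates). The 2 SNAREs of ER-to-Golgi transport had introns close behind the start codon, as did SEC14 (after 9 coding bases). In BET1 (YIL004C, minus strand) the intron spanned chrIX:348364-348494, 131 bases after 11 coding bases, and in BOS1 (YLR078C, minus strand) it spanned chrXII:286468-286556, 89 bases after 3 coding bases. The intron of SAR1 (YPL218W), the GTPase that starts the COPII coat, lay at chrXVI:138726-138864 and was 139 bases long. The intron of SEC17 (YBL050W), the yeast alpha-SNAP that helps to take SNARE complexes apart, lay at chrII:125155-125270 and was 116 bases long. The intron of SNC1 (YAL030W), a SNARE of vesicles bound for the plasma membrane, lay farthest into its gene, after 102 coding bases, at chrI:87388-87500.

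Among the lipid and membrane-shaping members, SEC14 (YMR079W), a phosphatidylinositol and phosphatidylcholine transfer protein of the Golgi, had an intron of 156 bases at chrXIII:424998-425153. The intron of YOP1 (YPR028W), a protein that shapes tubular ER, lay at chrXVI:623578-623710 and was 133 bases long. The intron of YIP3 (YNL044W), which binds Rab-type GTPases, was the shortest of the 9, with 79 bases at chrXIV:545292-545370. The 8 annotated introns lie below or near the median of all annotated introns, which was 143 bases (range 52 to 1002). Of these 8, SEC14 was the one with a length divisible by 3. ARF2 (YDL137W) encodes an ADP-ribosylation factor, the GTPase type that starts the COPI coat. Its unannotated intron of 355 bases at chrIV:216158-216512 ended 16 bases before the start of the coding span and was assigned to the gene through its flanking exon.

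In untreated S288c cells the annotated members had low to moderate PSI in both preparations. The group median over the annotated members was 0.185 in WT (TruSeq) and 0.23 in -rap (Ribo-Zero), against 0.2125 over all annotated introns in each of these groups. SEC17 and YOP1 lay at the bottom, with 0.09 and 0.1 in the WT libraries for SEC17 and 0.1 in both for YOP1. YIP3 and BOS1 lay at the top, with 0.21 and 0.42 in WT for YIP3 and 0.34 and 0.27 for BOS1. The WT values of YIP3 were farther apart than those of any other annotated member in a TruSeq group, so its place in the order is uncertain.

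SNC1 stayed within the narrowest limits of the members measured in all 26 libraries. Its TruSeq values ran from 0.13 to 0.29 with a median of 0.19, and its Ribo-Zero values from 0.11 to 0.23 with a median of 0.185. BET1 ran from 0.24 to 0.81 in the Ribo-Zero libraries with a median of 0.37, and BOS1 from 0.2 to 0.9 with a median of 0.355. The unannotated ARF2 event ran from 0.44 to 1 in the Ribo-Zero libraries, on a scale whose direction is uncertain for it, and its replicates differed by up to 0.38, the most of the 9 introns.

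**Figure D1:**
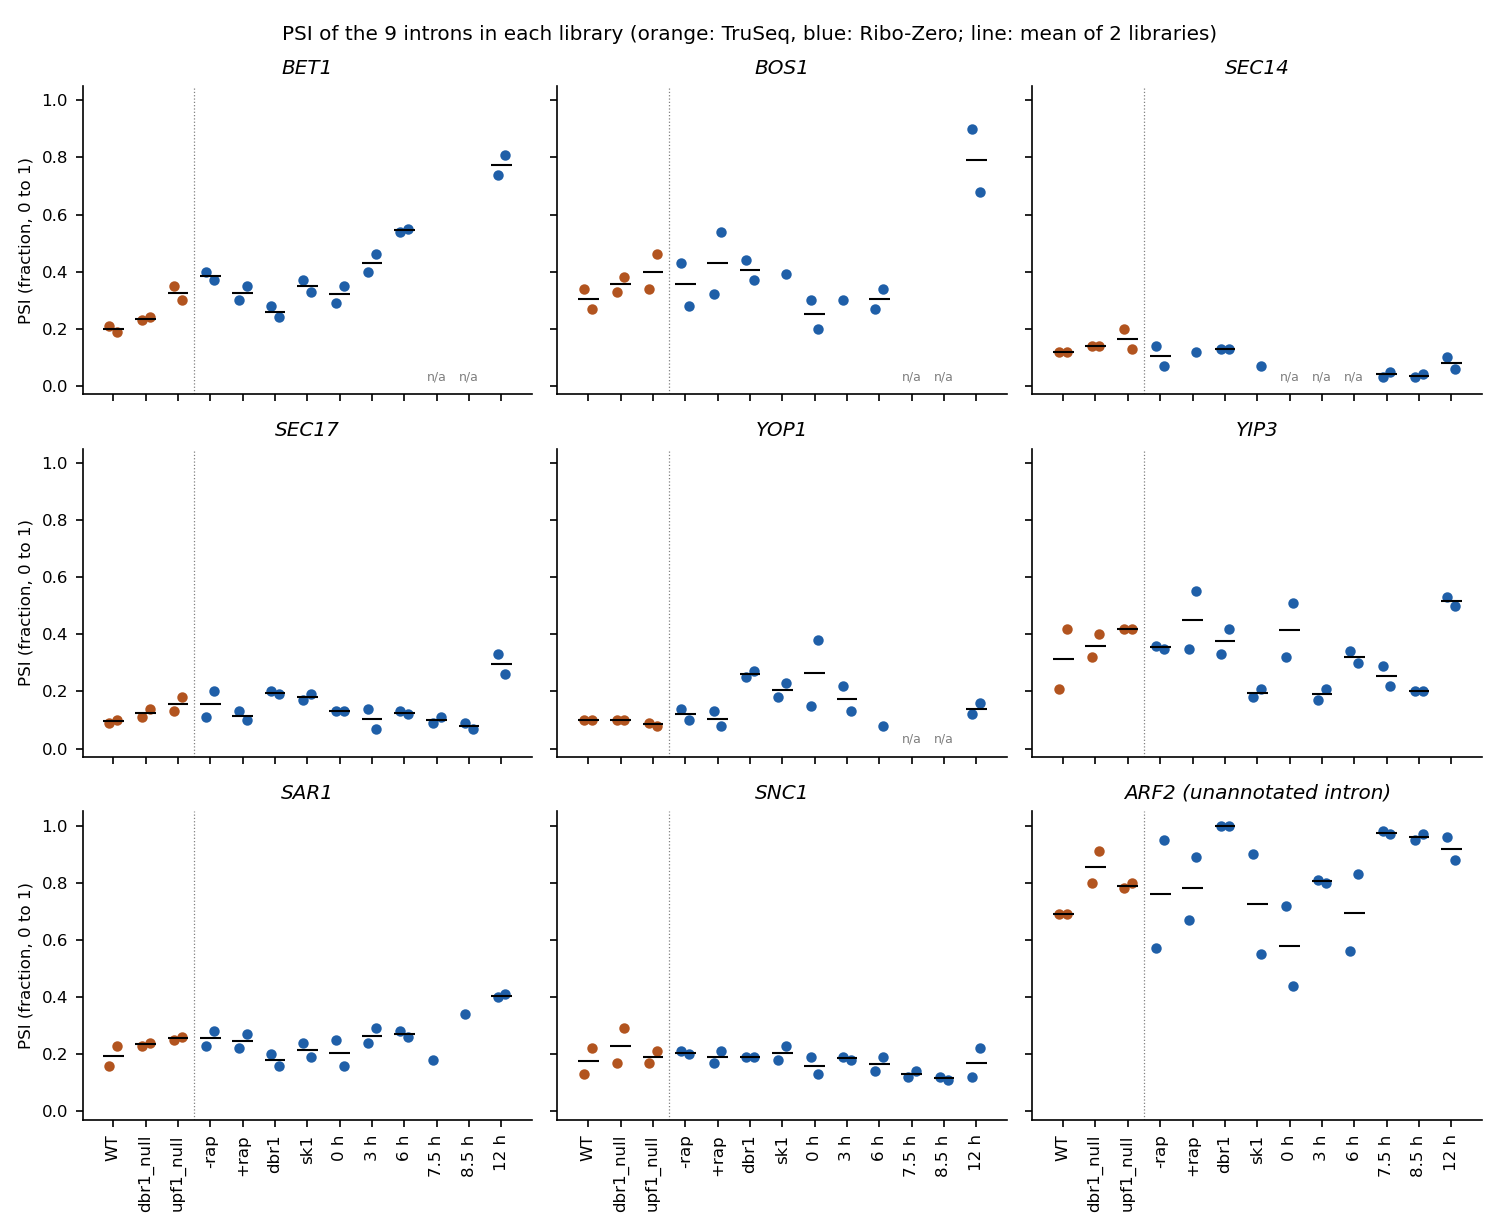
PSI (vertical axis, fraction from 0 to 1) of each of the 9 introns in each of the 26 RNA-seq libraries (points), by group (horizontal axis), with the mean of the 2 libraries as a line; n/a marks groups with no value. BET1 and BOS1 reach their highest values at 12 h of sporulation, SNC1 stays between 0.11 and 0.29, and the replicates of ARF2 lie far apart in several groups.

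The sporulation course asks how splicing of these genes differs between times in sporulation medium. At 12 h the introns of both ER-to-Golgi SNAREs, BET1 and BOS1, had PSI of 0.68 or more in both libraries, and those of SAR1 and SEC17 had also risen against 0 h. SNC1 and YIP3 did not pass the test between these times. Of the 8 members tested, 4 rose and none fell, where 27% of all 267 events tested were called in either direction and 19.1% were called higher. Among annotated introns outside ribosomal protein genes, 34 of 91 were called higher.

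BET1 had PSI of 0.29 and 0.35 at 0 h, 0.4 and 0.46 at 3 h, 0.54 and 0.55 at 6 h, and 0.74 and 0.81 at 12 h; it has no value at 7.5 and 8.5 h. Each of these 4 times lay above the one before with no overlap between libraries. The mean was 0.775 ± 0.0495 (SD, n = 2) at 12 h and 0.32 ± 0.0424 at 0 h, a difference of 2.82 in log2 odds of PSI (SE 0.27; limma, Benjamini-Hochberg adjusted p = 0.000138). It passed under all 10 alternative settings, with a highest adjusted p of 0.0415. The single steps did not pass: 0 to 3 h gave a log2 odds difference of 0.67 (limma adjusted p = 0.144, range over alternatives 0.0766 to 0.413), and 3 to 6 h gave 0.66 (limma adjusted p = 0.621, range 0.2 to 1).

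BOS1 had 0.3 and 0.2 at 0 h, 0.27 and 0.34 at 6 h, and 0.9 and 0.68 at 12 h. At 3 h it had a value in replicate 1 only, 0.3, and at 7.5 and 8.5 h it had none. The 12 h libraries lay above every other Ribo-Zero library of this intron, but also far apart from each other. The mean at 12 h was 0.79 ± 0.156 against 0.25 ± 0.0707 at 0 h (SD, n = 2), a log2 odds difference of 3.63 (SE 0.70; limma adjusted p = 0.00705). The call was lost when 0 h replicate 2 was left out (adjusted p = 0.057) and when only these 2 groups were fitted (adjusted p = 0.126).

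SAR1 had 0.25 and 0.16 at 0 h, 0.24 and 0.29 at 3 h, 0.28 and 0.26 at 6 h, and 0.4 and 0.41 at 12 h. In between, SAR1 had a value in replicate 1 only, 0.18 at 7.5 h and 0.34 at 8.5 h. Its 12 h libraries were the highest of the 18 Ribo-Zero libraries with a value. The mean rose from 0.205 ± 0.0636 to 0.405 ± 0.00707 (SD, n = 2), a log2 odds difference of 1.39 (SE 0.31; limma adjusted p = 0.00926). Without 0 h replicate 2 the adjusted p was 0.0651, and with only these 2 groups it was 0.121.

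SEC17 had 0.13 in both libraries at 0 h, values from 0.07 to 0.14 at the times from 3 to 8.5 h, and 0.33 and 0.26 at 12 h. Its 12 h libraries stood above all its other Ribo-Zero libraries, of which the highest was 0.2. Against 0 h the mean of 0.295 ± 0.0495 (SD, n = 2) was higher by 1.42 in log2 odds (SE 0.37; limma adjusted p = 0.0135). This call was lost without 0 h replicate 1 (adjusted p = 0.0535), 0 h replicate 2 (0.0618) or 12 h replicate 1 (0.0977) and with only the 2 groups fitted (0.0644). Against 8.5 h, where the mean was 0.08 ± 0.0141, SEC17 rose by 2.14 (SE 0.36; limma adjusted p = 0.00142) and passed under all alternatives, up to an adjusted p of 0.0477.

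YIP3 went down and up over the course. Its libraries gave 0.32 and 0.51 at 0 h, 0.17 and 0.21 at 3 h, 0.34 and 0.3 at 6 h, 0.29 and 0.22 at 7.5 h, 0.2 in both at 8.5 h, and 0.53 and 0.5 at 12 h. The 3 h and 8.5 h libraries were the low ones, and the 0 h and 12 h libraries overlapped. YIP3 rose between 8.5 and 12 h, from 0.2 ± 0 to 0.515 ± 0.0212 (SD, n = 2), by 2.03 in log2 odds (SE 0.41; limma adjusted p = 0.00387), under all alternatives up to an adjusted p of 0.0303.

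Between 0 and 3 h YIP3 fell by 1.54 in log2 odds (SE 0.41; limma adjusted p = 0.0432), the 1 call among 7 members tested, where 9.76% of 287 events were called and 8.36% were called lower. The fall was not called without 0 h replicate 2 (adjusted p = 0.268), without 3 h replicate 1 (0.151), on untransformed PSI (0.0668) or with only the 2 groups (0.405). YIP3 and SEC17 were the 2 members called among the 5 tested between 8.5 and 12 h, where 23% of 200 events were called and 17.5% were called higher. In the same step SEC14, at 0.03 and 0.04 at 8.5 h and 0.1 and 0.06 at 12 h, differed by 1.04 (limma adjusted p = 0.137, range 0.119 to 0.478).

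In the other steps limma called no member. Between 3 and 6 h, 0 of 6 members and 0% of 326 events were called; 2 members, BET1 and YIP3, and 22 events had an unadjusted p under 0.05. Between 6 and 7.5 h, 0 of 4 members were called against 16.6% of 235 events, and 1 member, ARF2, had an unadjusted p under 0.05. Its libraries gave 0.56 and 0.83 at 6 h and 0.98 and 0.97 at 7.5 h (log2 odds difference 3.55, SE 1.19; limma adjusted p = 0.0592, range 0.0461 to 0.335, under 0.05 with robust moderation). Between 7.5 and 8.5 h, 0 of 5 members were called against 3.96% of 202 events, and 0 members had an unadjusted p under 0.05.

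A limma F-test for any difference over the 6 times could use the 4 members with a value in all 12 libraries. It called 3 of them, where 56% of 159 events were called. SEC17 (F = 9.02, limma adjusted p = 0.00406) and YIP3 (F = 8.64, limma adjusted p = 0.00444) passed under all alternatives. ARF2 (F = 4.17, limma adjusted p = 0.0383) passed under 4 of 18, with adjusted p from 0.0232 to 0.189, and the call was lost when any single library of 0, 3, 7.5 or 8.5 h, 6 h replicate 1 or 12 h replicate 1 was left out (0.051 to 0.109). SNC1 was not called (F = 1.55, limma adjusted p = 0.321, range 0.0695 to 0.921).

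The same test over 0, 3, 6 and 12 h, added after the data were seen because BET1 has no value at the other times, called 43.8% of 251 events. BET1 had F = 40 (limma adjusted p = 0.000295) and SAR1 had F = 6.93 (limma adjusted p = 0.025), while SEC17 and YIP3 each had an adjusted p of 0.0091. SNC1 (F = 0.24, limma adjusted p = 0.921) and ARF2 (F = 2.35, limma adjusted p = 0.189) were not called. BOS1, SEC14 and YOP1 lack values and could not be tested.

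**Figure D2:**
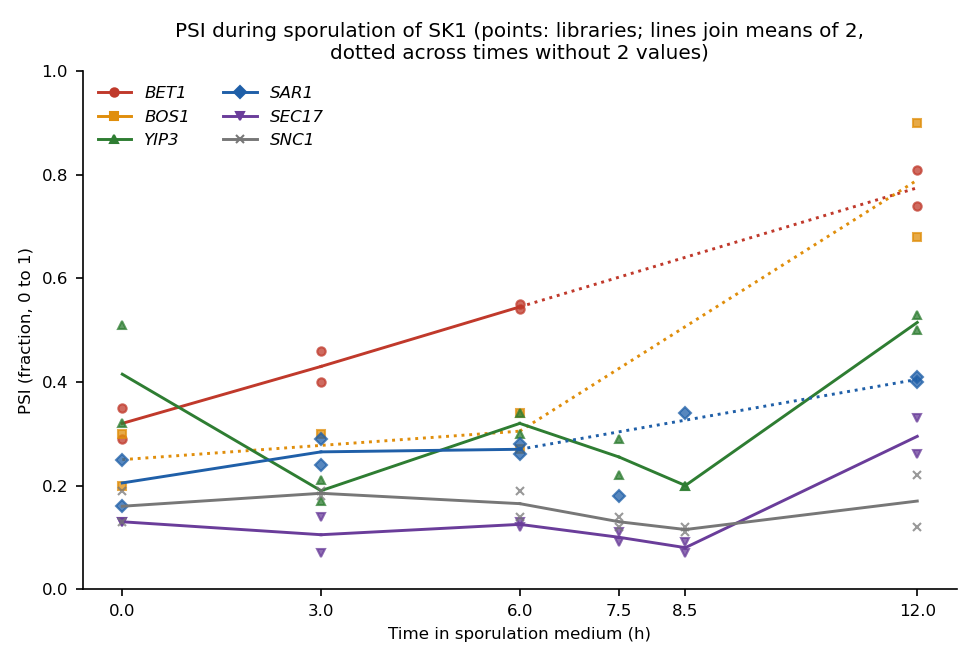
PSI (vertical axis, fraction) of 6 annotated introns against time in sporulation medium (horizontal axis, hours); points are libraries, solid lines join means of 2 libraries at neighbouring times, and dotted lines pass over times without 2 values. BET1 lies between 0.29 and 0.35 at 0 h and between 0.74 and 0.81 at 12 h, while SNC1 stays between 0.11 and 0.22.

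Higher PSI at 12 h was not confined to these genes. Between 0 and 12 h, 41 of 170 annotated introns rose and 8 fell, with a median PSI difference of 0.05. Outside the ribosomal protein genes 34 of 91 rose and 2 fell, with a median of 0.065. The 8 members had a median of 0.1825, and 7 of them had a difference above 0. Both values include the unannotated ARF2 event, whose direction is uncertain. YOP1 was the one below 0, with 0.15 and 0.38 at 0 h and 0.12 and 0.16 at 12 h (log2 odds difference -0.99; limma adjusted p = 0.222, but 0.0328 without 0 h replicate 1). ARF2 was at 0.72 and 0.44 at 0 h and at 0.96 and 0.88 at 12 h, without overlap, and was not called (log2 odds difference 3.03; limma adjusted p = 0.0732, range 0.0583 to 0.331).

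The 0 h cells were also compared with the sk1 culture; how these cultures differed beyond their labels was not tested. Of 7 members tested 1 was called, where 36.9% of 293 events were called and 28.3% were called higher. YIP3 had 0.18 and 0.21 in sk1 and 0.32 and 0.51 at 0 h and rose by 1.49 in log2 odds (SE 0.41; limma adjusted p = 0.0159). The 2 libraries at 0 h both lay above sk1, but far apart. Leaving out sk1 replicate 1, sk1 replicate 2 or 0 h replicate 2 gave an adjusted p of 0.0892, 0.0503 and 0.156, and fitting only the 2 groups gave 0.153.

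The dbr1 cells ask what happens when lariats are not opened. In the Ribo-Zero libraries PSI was high over the annotated introns in dbr1 cells, with a group median of 0.895, while the median of the annotated members was 0.2275. None of the 8 annotated members was called higher than -rap, against 119 of 205 annotated introns and 31 of 114 annotated introns outside ribosomal protein genes. Over all 9 members 1 was called higher and 1 lower, where 44.2% of 319 events were called, 43.3% higher and 0.94% lower. The median PSI difference was 0.025 over the 9 members, the unannotated ARF2 event included, and 0.045 over annotated introns outside ribosomal protein genes.

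BET1 was the member that was lower, with 0.28 and 0.24 in dbr1 against 0.4 and 0.37 in -rap. The groups did not overlap, and the log2 odds fell by 0.81 (SE 0.28; limma adjusted p = 0.0363). The call was lost without dbr1 replicate 2 (adjusted p = 0.116), -rap replicate 1 (0.145) or -rap replicate 2 (0.0673), with robust moderation (0.0673) and over annotated introns only (0.0697). Among all Ribo-Zero groups BET1 was lowest in dbr1, at 0.26 ± 0.0283, followed by 0 h at 0.32 ± 0.0424, +rap at 0.325 ± 0.0354, sk1 at 0.35 ± 0.0283 and -rap at 0.385 ± 0.0212 (SD, n = 2). The steps from 0 h to +rap and from +rap to sk1 in this order were smaller than the SD.

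The member called higher in PSI was the unannotated ARF2 event, at 1 in both dbr1 libraries and at 0.57 and 0.95 in -rap. Whether this stands for more or for less splicing cannot be said from these values. The log2 odds difference was 4.46 (SE 1.18; limma adjusted p = 0.00645). The 2 control libraries lay far apart, and the call was lost without -rap replicate 1 (adjusted p = 0.112), with an offset of 0.05 (0.0642), on untransformed PSI (0.26) and with only the 2 groups (0.155). YOP1 had 0.25 and 0.27 in dbr1 and 0.14 and 0.1 in -rap, with no overlap, and did not pass (log2 odds difference 1.32, SE 0.55; limma adjusted p = 0.0856, range 0.0453 to 0.327, under 0.05 with only the 2 groups fitted). The other 6 members had differences between -0.62 (SAR1) and 0.44 (SEC17).

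In the TruSeq libraries limma called 0 of 9 members between dbr1_null and WT, where 2.65% of 377 events were called, and 1 member had an unadjusted p under 0.05. That member was ARF2, at 0.69 in both WT libraries and at 0.8 and 0.91 in dbr1_null (log2 odds difference 1.45, SE 0.48; limma adjusted p = 0.228). It passed without dbr1_null replicate 1 (adjusted p = 0.022). BET1 had 0.21 and 0.19 in WT and 0.23 and 0.24 in dbr1_null, a PSI difference of 0.035, where the Ribo-Zero difference was -0.125. YOP1 was at 0.1 in all 4 libraries. No member lay below its WT mean in dbr1_null. With the unannotated ARF2 event included, 8 of 9 differences were above 0, with a median of 0.04. Of the annotated introns outside ribosomal protein genes, 117 of 165 were above 0, with a median of 0.035.

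The upf1_null cells ask which transcripts change when nonsense-mediated decay is lost. Against the same WT libraries, limma called 1 of 9 members, higher, where 12.8% of 382 events were called and 11.8% were called higher. BET1 had 0.35 and 0.3 in upf1_null against 0.21 and 0.19 in WT, without overlap, and the mean rose from 0.2 ± 0.0141 to 0.325 ± 0.0354 (SD, n = 2; log2 odds difference 0.91, SE 0.14; limma adjusted p = 0.0469). It passed under 3 of 11 alternatives, and leaving out any 1 of the 4 libraries gave an adjusted p between 0.0748 and 0.157. The call was also lost on untransformed PSI (0.0524), with robust moderation (0.0593) and with only the 2 groups (0.102).

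A further 2 members had an unadjusted p under 0.05 and were not called. SEC17 had 0.13 and 0.18 in upf1_null against 0.09 and 0.1 in WT (log2 odds difference 0.74, SE 0.25; limma adjusted p = 0.173, range 0.0972 to 0.408). YOP1 had 0.09 and 0.08 against 0.1 in both WT libraries, the 1 difference below 0 among the 9 (-0.24, SE 0.07; limma adjusted p = 0.126, range 0.0546 to 0.288). SAR1 (0.25 and 0.26 against 0.16 and 0.23) and SEC14 (0.2 and 0.13 against 0.12 in both) did not pass. They were called when a single library was left out, SAR1 without WT replicate 2 (limma adjusted p = 0.0446) and SEC14 without upf1_null replicate 2 (limma adjusted p = 0.0095).

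**Figure D3:**
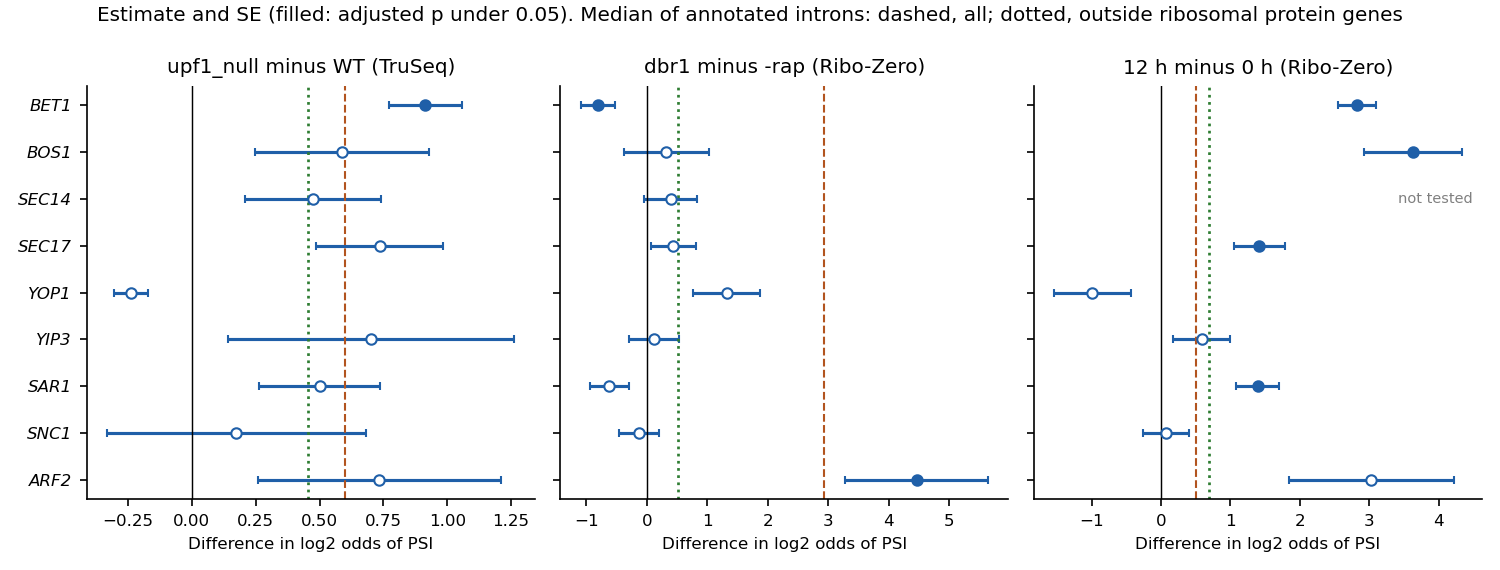
Difference in log2 odds of PSI (horizontal axis) of each member in 3 comparisons, with its SE as a bar; filled points have a limma adjusted p under 0.05, the dashed line is the median of all annotated introns and the dotted line that of annotated introns outside ribosomal protein genes. In dbr1 against -rap the 8 annotated members lie left of the dashed line, while BET1 and BOS1 lie far right of both lines at 12 h against 0 h; the horizontal scales differ.

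The +rap group showed no call among the members. Limma called 0 of 8 and 0 had an unadjusted p under 0.05, where 21.2% of 306 events were called. Of the annotated introns outside ribosomal protein genes 3 of 104 were called higher and 2 lower. BET1 had 0.3 and 0.35 in +rap, below both -rap libraries, a log2 odds difference of -0.37 (SE 0.28). The strain comparison of sk1 with -rap gave 0 of 7 calls by limma, where 2.04% of 294 events were called, and 1 member had an unadjusted p under 0.05. YIP3 had 0.18 and 0.21 in sk1 against 0.36 and 0.35 in -rap, without overlap (log2 odds difference -1.15, SE 0.41; limma adjusted p = 0.209, range 0.0653 to 0.599).

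Of other genes of secretion and membrane traffic, 13 events were in the table. Between 0 and 12 h 5 of them could be tested and limma called 0, where 27% of all 267 events were called. Of the 5, 1 had an unadjusted p under 0.05, against 107 of the 267. In upf1_null 1 of 13 rose, where 11.8% of all 382 events were called higher. This was ERD2, the receptor that returns proteins with an HDEL signal to the ER. It rose from 0.15 ± 0.0141 to 0.265 ± 0.00707 (limma adjusted p = 0.038). Leaving out any 1 library lost this call, with adjusted p from 0.0804 to 0.167, as did fitting only the 2 groups (0.0639). In the Ribo-Zero dbr1 cells 1 of 7 rose, where 43.3% of all 319 events were called higher. SEC27, a COPI coat subunit, rose from 0.15 ± 0.0141 to 0.455 ± 0.0919 (log2 odds difference 2.17, SE 0.38, limma adjusted p = 0.000705). It passed under all alternatives, up to a limma adjusted p of 0.0351. In dbr1_null against WT 0 of 13 were called, where 2.65% of 377 events were called. An unadjusted p under 0.05 was found for 5 of the 13 and for 78 of the 377. In +rap and sk1 against -rap 0 of 7 were called by limma in each, with 0 and 1 at an unadjusted p under 0.05. Over all events 21.2% were called in +rap and 2.04% in sk1.

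Over the course, GOT1, a Golgi membrane protein of vesicle transport, was at 0.105 ± 0.0354 at 6 h, 0.845 ± 0.0212 at 7.5 h and 0.4 ± 0.0424 at 8.5 h (SD, n = 2). It was the 1 event of the 13 tested between 6 and 7.5 h, where 23 of all 235 events tested were called higher. Between 7.5 and 8.5 h it was 1 of 2 tested, where 4 of all 202 events were called lower. The rise passed under all alternatives (limma adjusted p = 0.000326, highest 0.0222). The fall (limma adjusted p = 0.0339) was lost with any 1 library left out, with adjusted p from 0.105 to 0.139. Between sk1 and 0 h, 2 of 7 events fell, where 25 of all 293 events tested were called lower. Of the annotated introns outside ribosomal protein genes, 11 of 97 were called lower. NYV1, a vacuolar SNARE, fell from 0.42 ± 0.0424 to 0.145 ± 0.0212 (limma adjusted p = 0.00764), a call lost without 0 h replicate 2 (0.0604) or sk1 replicate 1 (0.0551). DID4, a subunit of the ESCRT-III complex, fell from 0.795 ± 0.0778 to 0.52 ± 0.0707 (limma adjusted p = 0.0386), a call lost with any 1 library left out (0.0624 to 0.243). In the steps from 0 to 3 h, 3 to 6 h and 8.5 to 12 h limma called none of this list, with 0 at an unadjusted p under 0.05 in each. Over all events 9.76%, 0% and 23% were called in these steps.

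Branch points of the members came from a Branch-seq experiment, whose 3 gel fractions were pooled in 1 column of depth-scaled read counts (CPM), and from 1 Lariat-seq library. Neither has replicates, so they allow no test. Branch-seq listed an annotated branch point for 7 of the 9 genes. YIP3 had 1187 CPM, rank 5 of the annotated branch points, followed by YOP1 with 391 CPM (rank 33) and SNC1 with 180 CPM (rank 74). BOS1 with 113 CPM and SEC17 with 112 CPM lay at the median of the annotated table, 113 CPM.

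BET1 and SEC14 were near the bottom. BET1 had 0.501 CPM (rank 160), which is 12 times the lowest value in the tables, taken as 12 reads (95% Poisson interval 6.2 to 21). SEC14 had 0.0834 CPM (rank 184, shared with others), the lowest value in the annotated table and equal to 2 reads (0.242 to 7.22). All Branch-seq values were within 0.01 of a whole multiple of 0.0417 CPM, the lowest value over annotated and unannotated branch points together. The intervals cover counting error only. SAR1 and ARF2 had no listed branch point.

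BOS1 and SEC14 each had a second branch point in the list of unannotated ones. In BOS1 it had 3.21 CPM and lay 21 bases from the annotated one, towards the 5′ splice site, and the annotated one had 35.2 times as many counts. In SEC14 it had 0.376 CPM, or 9 reads (4.12 to 17.1), and lay 19 bases upstream. There the unannotated branch point had 4.5 times the counts of the annotated one, with intervals that overlap.

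Lariat-seq listed 4 members among its 58 sites, which had a median of 11.5 junction reads and 3541 in all. YOP1 had 550 reads (95% Poisson interval 505 to 598, rank 2) and SEC14 had 267 (236 to 301, rank 5). SEC17 had 50 (37.1 to 65.9) and BET1 had 17 (9.9 to 27.2). The annotated branch point of SEC14 thus shared the lowest value among annotated branch points in Branch-seq, and its site was rank 5 in Lariat-seq, while YIP3, near the top of Branch-seq, was not listed in Lariat-seq.

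By the Lariat-seq position, the branch point of BET1 lay 19 bases before the 3′ splice site, against a median of 33 bases (range 11 to 164) over the 39 sites at annotated introns. For SEC14 and SEC17 this distance was 38 bases each and for YOP1 it was 44. From the 5′ splice site to the branch point the distance was 111 bases in BET1, 117 in SEC14, 77 in SEC17 and 88 in YOP1, with a median of 111 over the same 39 sites (range 66 to 383).

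**Figure D4:**
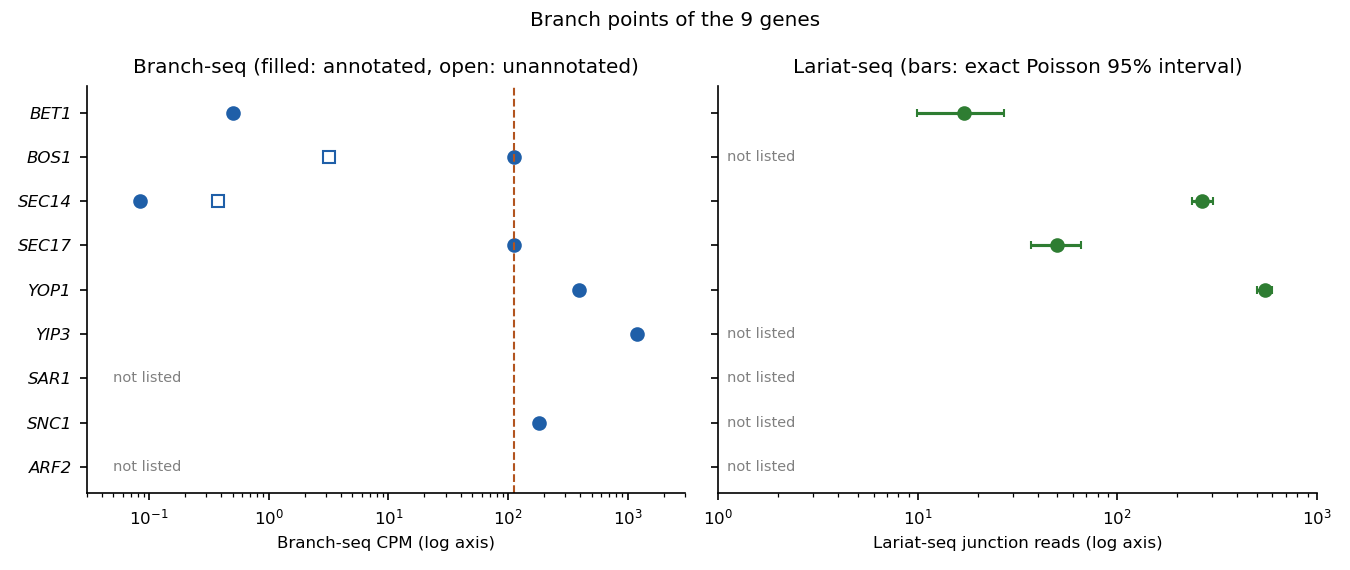
Branch-seq CPM (left, log axis; filled circles annotated and open squares unannotated branch points, dashed line the median of annotated branch points) and Lariat-seq junction reads with exact Poisson 95% intervals (right, log axis) for each of the 9 genes. SEC14 has the lowest of the members' values on the left and is second highest of the 4 listed genes on the right, and 5 genes are not listed on the right.

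The introns most like a member in pattern were taken by the correlation of mean log2 odds over the 10 Ribo-Zero groups, which share libraries and preparation; 69 annotated introns had all values. Only YIP3, SNC1 and SEC17 among the annotated members could be compared in this way. The nearest to YIP3 were RPL22B (Pearson r = 0.75), RPL37B (0.63) and HNT1 (0.60). The nearest to SNC1 were YDL012C (0.82), PRE3 (0.82) and YJR079W (0.77), and the nearest to SEC17 were OM14 (0.83), PRE3 (0.73) and HNT1 (0.69).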

How the data were processed

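The authors deposited PSI as a fraction per splicing event and library, branch points with Branch-seq CPM, and Lariat-seq junction read counts, per the file headers. Per the submitters' processing notes, RNA-seq reads were aligned with TopHat2 and Bowtie (sacCer3), Branch-seq with Bowtie 1.0.0 (sacCer2) and Lariat-seq with Bowtie 1.0.0 (sacCer3); the program that computed PSI is not given in the sources used here. Branch-seq was matched to genes by locus tag, and no coordinate was converted between builds.

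PSI was transformed to log2((PSI + 0.01)/(1 − PSI + 0.01)). limma 3.58.1 in R 4.3.3 was fitted on all libraries of a preparation, with 1 mean per group, to events with both values in both groups compared. Tests were two-sided, adjusted by the Benjamini-Hochberg method over all events tested, and called at an adjusted p under 0.05. With 2 libraries per group, the test rests on the spread shared across groups. All events of the 9 genes are named, and of the other traffic genes those that passed. Members and lists were chosen with earlier results of these data known. Alternatives were another offset, untransformed PSI, robust moderation, only the 2 groups, annotated introns only, complete events, the replicate number as a block, each library left out and, added after the data were seen, the course over 4 times. In the PSI table, 30 events overlapped no gene and could not be searched by name.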

Additional observations from a re-analysis of the deposited data

Results flagged for a closer look

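The PSI differences of BET1 had opposite signs in the 2 preparations of debranching mutants, with every mutant library on that side of every control library. BET1 was picked from the 9 members by this pattern, and how many of all events share it was not counted. In the TruSeq libraries PSI was 0.035 higher in dbr1_null than in WT, a difference that did not pass the test (limma adjusted p = 0.374). In the Ribo-Zero libraries the PSI difference of dbr1 from -rap was -0.125, which passed (limma adjusted p = 0.0363) but lost the call under 5 of 10 alternatives, 3 of them with 1 library left out (adjusted p up to 0.145). The difference between these differences was not tested, and the preparations were sequenced separately, each with other controls.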

How the results depend on the processing

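Of 398 values of single introns under alternatives, 328 were the same, 64 lost the call and 6 gained it. The 398 include results not called in the main fit, for which the same means still not called. Only results called in the main fit could lose a call, so the share that lost it is larger among these. None of the 398 values reversed in direction, but the F-tests among them have no direction. The others were kept for an unadjusted p under 0.05 or a call in some setting. A reversal was therefore unlikely from the start, and its absence is no measure of stability. The number of members called fell in upf1_null against WT from 1 to 0 on untransformed PSI, with robust moderation, with only the 2 groups and with the replicate block, and ranged from 0 to 1 with 1 library left out. In Ribo-Zero dbr1 against -rap it fell from 2 to 1 with an offset of 0.05, untransformed PSI and robust moderation. It was also 1 over events with no missing value, where BET1 is not tested, and 0 over annotated introns only, where ARF2 is not tested and BET1 had an adjusted p of 0.0697 (0 to 2 with 1 library left out). It fell from 1 to 0 with only the 2 groups for 0 h against sk1 and for 3 h against 0 h, the latter also on untransformed PSI (0 to 1 with 1 library left out in both). It rose from 0 to 1 for 7.5 h against 6 h with robust moderation, and fell from 4 to 1 for 12 h against 0 h with only the 2 groups (1 to 4 with 1 library left out). It was also 1 over events with no missing value, where BET1, BOS1 and SAR1 are not tested. For dbr1_null against WT it was 0 to 1 with 1 library left out. Apart from the introns not tested, the cause was not tested.

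The labels do not say what a shared replicate number marks. The correlation of replicate differences had mixed signs, from -0.383 (sk1 and -rap) to 0.362 (+rap and -rap), so the samples were taken to share only a number. With the replicate block, calls over all events went from 49 to 11 in upf1_null and from 10 to 2 in dbr1_null, but from 65 to 74 in +rap, from 72 to 78 for 12 h against 0 h and from 39 to 45 for 7.5 h against 6 h. Under the block BET1 (limma adjusted p = 0.0903) and ERD2 (0.0934) lost their calls in upf1_null. Fitting only the 2 groups gave 21 in place of 49 for upf1_null, 32 in place of 72 for 12 h against 0 h, 1 in place of 28 for 3 h against 0 h and 11 in place of 65 for +rap, but 19 in place of 6 for sk1 against -rap and 12 in place of 10 for dbr1_null. The read depth behind PSI is unknown.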
